A study of Mus musculus with 14 samples.

Results

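Interferon-stimulated genes were followed here through the kidneys of WT and Cfb-/- mice with and without diabetes. A list of 41 genes was taken by symbol, of which 39 had a row in the expression tables and all 39 passed the filter on low values (0.1 FPKM or more in 3 mice or more). FPKM counts fragments per kilobase of transcript, scaled to the mapped fragments of the library, so it can be compared between genes. The other 2 genes of the list, Mx1 and Mx2, were not analysed here. The 39 genes are read against all 14912 genes that passed the same filter, of 21878 in the tables. The list was chosen with earlier results of these data known.

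Kidneys of 14 male mice on the C57BL/6J background were sequenced, 4 from WT diabetic mice, 4 from Cfb-/- diabetic mice, 3 from WT control mice and 3 from Cfb-/- control mice. Cfb encodes complement factor B, a serine protease needed for the C3 convertase of the alternative complement pathway, and the Cfb-/- line is a constitutive knockout, although the labels call the genotype a knockdown. Diabetic mice received a high-fat diet with 60% of calories from fat, from 8 weeks of age and for 4 weeks before streptozotocin at 60 mg/kg on 5 days, whereas the chow of the control mice had 10% of calories from fat. Kidneys were taken 21 weeks after streptozotocin, and the labels give 34 weeks for every sample. The labels repeat the diabetic treatment text for the control mice beside a healthy status and normal chow, so groups follow the sample titles. The labels name the tissue as kidney and do not say which piece was taken. Because a tissue of mixed cells was measured, fewer cells of a type and less RNA per cell cannot be told apart, and neither can the effects of diet and streptozotocin.

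Interferons are cytokines, and those of type I are released by cells on sensing viral or misplaced self nucleic acid. Type I interferon binds the receptor made of IFNAR1 and IFNAR2, and its signal passes through JAK1 and TYK2 to a complex that holds STAT2 and IRF9 and binds the interferon-stimulated response element (ISRE) in promoters. Type II interferon (IFN-γ) has its own receptor and acts through another element, the gamma-activated site (GAS). The genes switched on include sensors of foreign RNA and DNA, enzymes that block viral replication, GTPases that attack vacuoles of intracellular microbes, and the transcription factors that sustain the response.

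As judged from low FPKM values, every library was at least 0.839 times as deep as the deepest one. Cfb itself averaged 106 ± 38.2 FPKM in WT control mice (SD, n = 3) and 72.5 ± 11.2 in WT diabetic mice (SD, n = 4), and 2.16 ± 0.0913 in Cfb-/- control mice (SD, n = 3) and 1.34 ± 0.144 in Cfb-/- diabetic mice (SD, n = 4) and the highest value in a Cfb-/- mouse was 2.22 FPKM. Proximal tubule markers summed to 1897 FPKM or more in every mouse, and thick limb, distal and collecting duct markers to 876 FPKM or more. These sums do not tell which piece of the kidney was taken. The mouse Cfb-/- diabetic 2 stood apart in the interferon-stimulated genes and is given separately where it bears on a result.

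Diabetic kidneys carried far more interferon-stimulated transcripts than control kidneys, in both genotypes. In WT mice, 38 of the 39 genes rose at an adjusted p under 0.05 and 0 fell (limma, Benjamini-Hochberg over all genes tested), where 36.2% of all tested genes rose and 9.97% fell. In Cfb-/- mice, 38 of 39 rose and 0 fell, where 27.4% of all tested genes rose and 6.4% fell. The median change of the 39 genes was 2.02 on the log2 scale in WT mice, a 4.05-fold rise, and 2.0 in Cfb-/- mice, a 3.99-fold rise. Over all tested genes the medians were 0.29 and 0.22. By the rule the study used for its own comparisons, an unadjusted p under 0.05 with a fold over 2 or under 0.5, 33 genes rose in WT mice and 34 in Cfb-/- mice, against 15.6% and 13.3% of all tested genes. Every diabetic mouse lay above every control mouse of its genotype for 37 genes in WT mice and for 38 in Cfb-/- mice, against 35.5% and 33.6% of all tested genes.

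**Figure D1:**
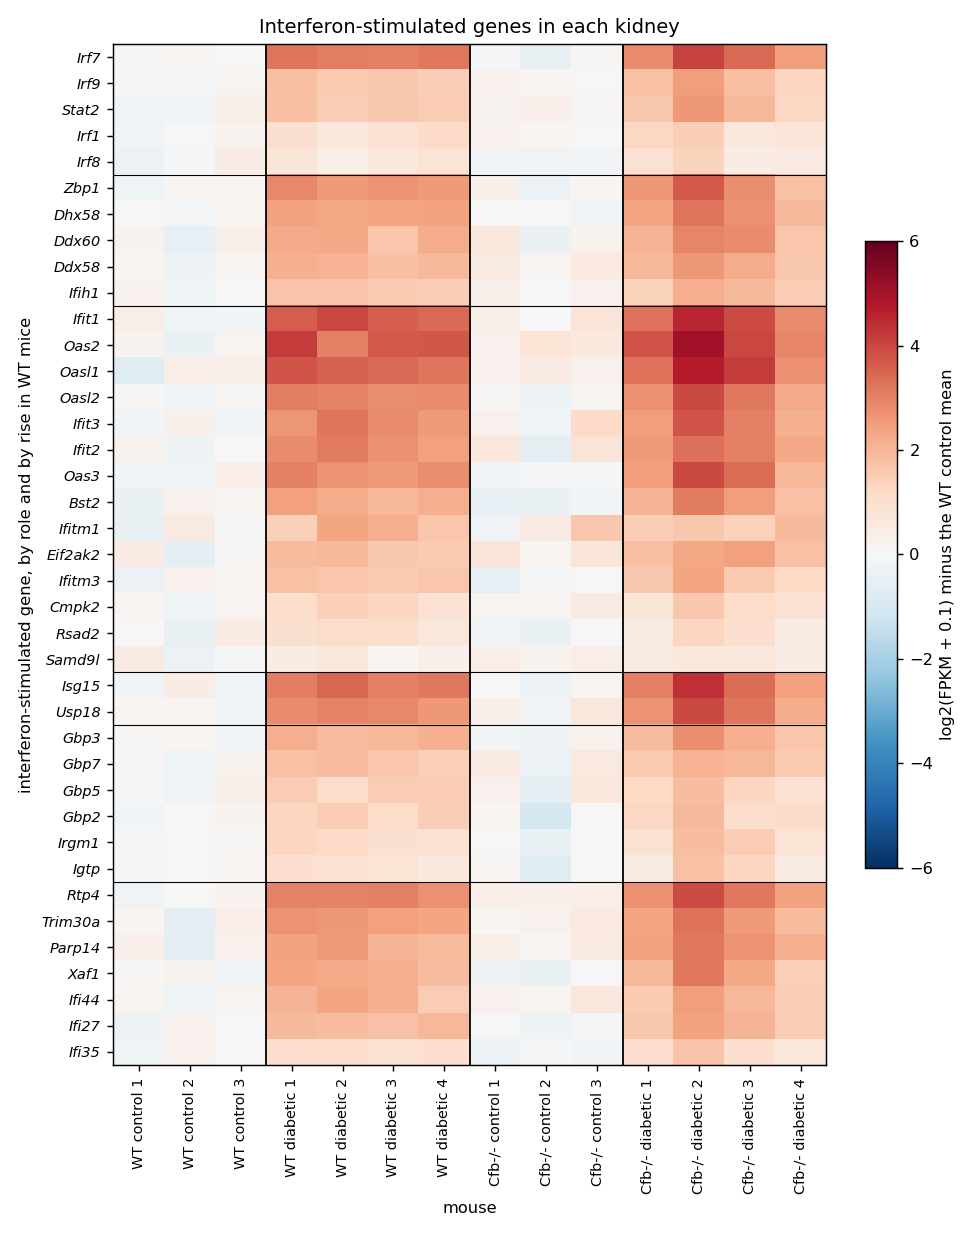
Level of each of the 39 genes (rows, grouped by role in the order transcription factors, nucleic acid sensors, antiviral effectors, ISG15 system, GTPases and others, and sorted by rise in WT mice) in each of the 14 mice (columns), as log2(FPKM + 0.1) minus the mean of the 3 WT control mice. Both diabetic groups are red in nearly every row, Samd9l stays pale throughout, and the column of Cfb-/- diabetic 2 is the darkest of the 14.

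Levels in control kidneys were low. In WT control mice the median of the 39 group means was 2.52 FPKM, with 8 genes under 1 FPKM and 5 above 10 FPKM, and the means ran from 0.117 FPKM for Oas3 to 55.5 FPKM for Ifitm3. In WT diabetic mice the median was 10.2 FPKM and 20 genes exceeded 10 FPKM. The corresponding medians were 2.92 FPKM in Cfb-/- control mice and 11.2 FPKM in Cfb-/- diabetic mice, with 22 genes above 10 FPKM in the latter.

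The promoters of these genes were searched for the ISRE. The genes were listed as interferon targets, so an excess of this element follows from the choice of the list and not from their rise. RefSeq promoter windows of the GRCm38.p6 assembly, from 250 bases before the transcription start to 50 after it, were matched by symbol to 32 of the 39 genes. The ISRE word, the letters GAAA followed after any 2 bases by GAAA again, read on either strand and with overlapping words allowed, occurred in 19 of the 32 (59.4%), compared with 3.91% of 11309 tested genes with a window. The GAS word TTCNNNGAA occurred in 10 (31.2%), compared with 8.44%, and 9 of the 32 held neither word. A match of letters is a description and not a mapped binding site. The stretches below are from genes named in the next paragraphs that held an ISRE word, shown 5′ to 3′ on the strand of the gene, from 160 bases before the transcription start up to it, with the ISRE words in capitals. For Ifitm3 the stretch runs 30 bases past the start, because both of its words lie there.
Ifit1, chr19:34640729-34640888, plus strand: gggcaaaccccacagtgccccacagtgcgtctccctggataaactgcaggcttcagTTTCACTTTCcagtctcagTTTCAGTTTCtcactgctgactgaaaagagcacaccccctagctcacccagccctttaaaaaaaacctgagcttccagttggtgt
Isg15, chr4:156200819-156200978, minus strand: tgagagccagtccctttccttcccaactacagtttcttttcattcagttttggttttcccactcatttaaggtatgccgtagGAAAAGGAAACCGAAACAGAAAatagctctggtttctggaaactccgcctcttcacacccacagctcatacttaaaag
Bst2, chr8:71537473-71537632, minus strand: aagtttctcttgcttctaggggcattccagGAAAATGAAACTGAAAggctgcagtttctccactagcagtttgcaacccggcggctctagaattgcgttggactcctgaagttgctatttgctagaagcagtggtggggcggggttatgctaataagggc
Ifitm3, chr7:141010715-141010904, minus strand: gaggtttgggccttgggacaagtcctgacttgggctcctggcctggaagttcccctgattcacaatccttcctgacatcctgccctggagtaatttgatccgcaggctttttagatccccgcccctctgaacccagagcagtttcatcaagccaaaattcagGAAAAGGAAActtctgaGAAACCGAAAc

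The Ifit1 window held 2 words read on the opposite strand, whose first printed bases lie 104 and 85 bases before the start. Isg15 held 3 overlapping words in a row, beginning 78, 72 and 66 bases before the start, and Bst2 held 2 overlapping words beginning 130 and 124 bases before it. Among the 32 genes with a window, the median change in WT mice was 1.75 on the log2 scale for the 19 genes with an ISRE word and 1.91 for the 13 without, and in Cfb-/- mice 1.69 and 1.54. The difference between these medians was not tested. Oasl1, Irf7 and Oasl2, which are among the genes with the largest rises, had windows without the word, as did Samd9l. Windows of Oas2, Rtp4, Usp18 and Ifi27 were not used here. Over all tested genes with a window, 48.4% of the 442 with an ISRE word rose in WT diabetic mice, compared with 35.3% of the 10867 without. In Cfb-/- mice the shares were 39.1% and 26.6%. The 442 include the 19 listed genes with the word, all of which rose in both genotypes. They also include 25 of the further interferon-induced genes described below, so the shares are partly set by these lists.

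All 5 transcription factors of the list rose in both genotypes, with medians of 1.60 in WT and 1.64 in Cfb-/- mice on the log2 scale. Irf7 (chr7:141263183-141266499), the master amplifier of type I interferon production, measured 3.93, 4.5 and 4.09 FPKM in the WT control mice, against 39.8, 35.7, 34.2 and 37.6 FPKM in the WT diabetic mice. It measured 3.84, 3.02 and 4.38 FPKM in the Cfb-/- control mice and 29.9, 71.4, 45.1 and 24.2 FPKM in the Cfb-/- diabetic mice. The lowest diabetic mouse, at 24.2 FPKM, lay far above the highest control mouse, at 4.5 FPKM, and the changes were 3.11 ± 0.26 in WT mice (SE, adjusted p = 3.03e-06, limma) and 3.36 ± 0.26 in Cfb-/- mice (SE, adjusted p = 2.02e-06). Irf7 had the smallest adjusted p of the 39 genes in both genotypes. Irf9 and Stat2, parts of the complex that binds the ISRE, rose by 1.62 and 1.60 in WT mice and by 1.74 and 1.64 in Cfb-/- mice. Irf1, which IFN-γ induces, rose by 0.92 and 0.90. Irf8, a factor of the monocyte and dendritic cell lineage, rose least of the 5 in WT mice (0.64, adjusted p = 0.0241, limma), where its diabetic mice at 4.8 to 6.35 FPKM overlapped the control mice at 2.82 to 4.93 FPKM, and it rose by 0.98 in Cfb-/- mice without overlap.

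The 5 sensors of nucleic acid rose in both genotypes, with medians of 2.12 and 2.21. Zbp1, which senses Z-form nucleic acid, changed most, from a mean of 0.502 ± 0.0894 FPKM (SD, n = 3) to 3.73 ± 0.448 (SD, n = 4) in WT mice and from 0.518 ± 0.139 (SD, n = 3) to 4.29 ± 2.4 (SD, n = 4) in Cfb-/- mice. The RNA helicases of the RIG-I family followed. Dhx58 (LGP2) rose by 2.38 in WT and 2.63 in Cfb-/- mice, Ddx58 (RIG-I itself) by 1.99 and 1.69, and Ifih1 (MDA5) by 1.62 and 1.59 on the log2 scale. Dhx58 was the steadiest of the 39 genes among WT diabetic mice, where its highest mouse exceeded its lowest by 1.07-fold. Ddx60, an interferon-induced RNA helicase, rose by 2.12 and 2.21 from control means of 0.122 and 0.15 FPKM.

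Among 14 antiviral effectors, 13 rose in WT and 13 in Cfb-/- mice, with medians of 2.49 and 2.48. They held the 3 largest rises of the 39 genes in WT mice, Ifit1, Oas2 and Oasl1. Ifit1 (chr19:34640889-34650009), which binds viral RNA that lacks host cap marks, measured 1.48, 0.908 and 0.956 FPKM in WT control mice, against 14.7, 19.2, 14.3 and 12.5 FPKM in WT diabetic mice. In the Cfb-/- mice it measured 1.41, 1.1 and 1.95 FPKM in controls and 11.2, 28.2, 17.8 and 8.41 FPKM in diabetic mice. Control and diabetic values did not overlap, and Ifit1 rose by 3.67 ± 0.33 in WT mice (SE, a 12.7-fold rise, adjusted p = 4.05e-06, limma) and by 3.26 ± 0.33 in Cfb-/- mice (SE, 9.57-fold, adjusted p = 9.94e-06). Its neighbours on chromosome 19, Ifit2 and Ifit3, rose by 2.79 and 2.81 in WT mice and by 2.50 and 2.45 in Cfb-/- mice. Ifit1 overlaps Ifit1bl1, at a mean of 0.657 FPKM, and close copies exist within the IFIT and GBP families, so how reads were divided among such copies is uncertain.

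Oas2, Oas3, Oasl1 and Oasl2 lie on chromosome 5 and belong to the oligoadenylate synthetase family, whose enzymatic members activate RNase L. Oas2 (chr5:120730333-120749886) measured 0.275, 0.149 and 0.265 FPKM in WT control mice, against 5.8, 2.53, 4.05 and 4.2 FPKM in WT diabetic mice, and 0.283, 0.473 and 0.41 FPKM in Cfb-/- control mice and 4.3, 10.5, 5.04 and 2.38 FPKM in Cfb-/- diabetic mice. It was under 0.5 FPKM in every control mouse and above 2 FPKM in every diabetic mouse, with rises of 3.65 ± 0.39 (SE, adjusted p = 1.27e-05, limma) and 3.36 ± 0.39 (SE, adjusted p = 2.56e-05). Oasl1 (chr5:114923143-114937911), which represses Irf7 translation in mice, measured 0.261, 0.695 and 0.661 FPKM in WT control mice, against 8.14, 6.92, 6.21 and 5.45 FPKM in WT diabetic mice. In Cfb-/- mice it measured 0.63, 0.737 and 0.629 FPKM in controls and 5.63, 15.9, 10.9 and 3.93 FPKM in diabetic mice. The rises were 3.48 ± 0.39 in WT mice (SE, adjusted p = 1.88e-05, limma) and 3.39 ± 0.39 in Cfb-/- mice (SE, adjusted p = 2.53e-05), again with no overlap. Oasl2 (chr5:114896926-114912245), the neighbour of Oasl1, measured 2, 1.65 and 1.98 FPKM in WT control mice, against 16.7, 15.2, 13.6 and 14 FPKM in WT diabetic mice, and 1.94, 1.51 and 2.08 FPKM in Cfb-/- control mice and 13, 30.6, 17.7 and 9.48 FPKM in Cfb-/- diabetic mice. It rose by 2.92 in WT and 3.07 in Cfb-/- mice. Oas3 rose by 2.76 and 3.10 from control means near the 0.1 FPKM of the filter, 0.117 and 0.0932 FPKM. Among controls only WT control 3 (0.181 FPKM) and Cfb-/- control 2 (0.102 FPKM) reached that level. Oas3 thus passed the filter only through the diabetic mice, in which it was high.

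**Figure D2:**
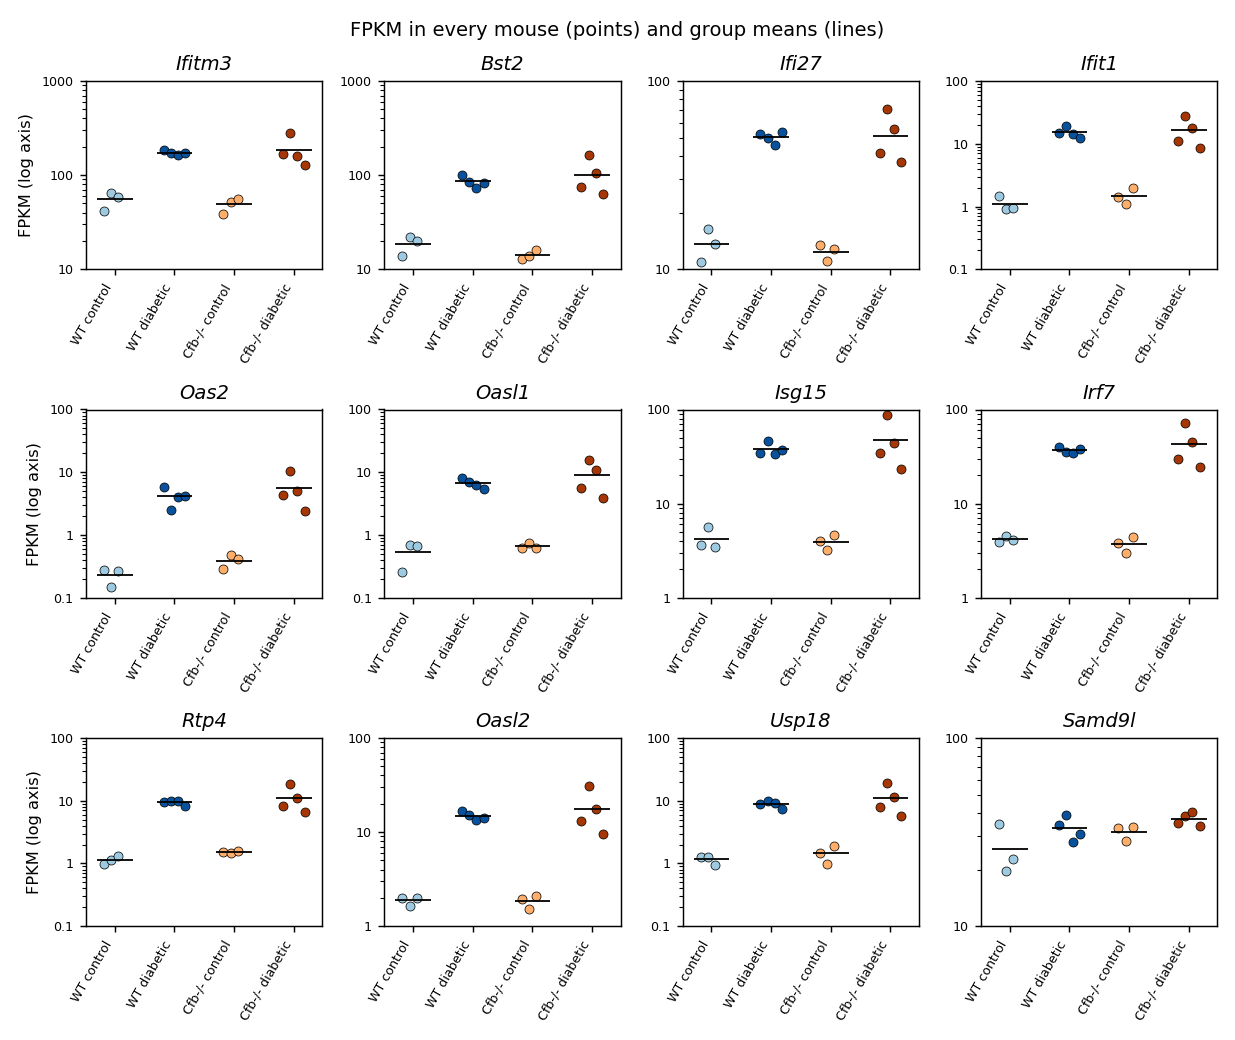
FPKM on log axes in every mouse (points) with the group mean (lines) for 12 genes, namely the 3 of highest mean FPKM (Ifitm3, Bst2, Ifi27), the 8 with the largest rises in WT diabetic mice, and Samd9l, the one gene that did not pass the test in either genotype. For 11 of the 12 no diabetic mouse overlaps the control mice of its genotype, and Cfb-/- diabetic 2 is the highest of its group in the same 11.

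Ifitm3 and Bst2, restriction factors of the membrane, had the highest mean FPKM of the effectors in diabetic mice. Ifitm3 (chr7:141009590-141010744), which blocks virus entry at endosomes, measured 42.1, 65.4 and 59.1 FPKM in WT control mice, against 183, 174, 163 and 174 FPKM in WT diabetic mice. In Cfb-/- mice it measured 39, 52.1 and 55.5 FPKM in controls and 169, 278, 160 and 127 FPKM in diabetic mice. It was the most abundant of the 39 genes in all 4 groups and rose by 1.67 in WT and 1.86 in Cfb-/- mice without overlap. Bst2 (tetherin, chr8:71534255-71537472), which holds budding virions at the cell surface, measured 14, 21.9 and 20 FPKM in WT control mice, against 101, 84.8, 73.3 and 83.4 FPKM in WT diabetic mice. Its values in Cfb-/- mice were 12.8, 13.7 and 16.1 FPKM in controls and 75.3, 162, 105 and 63 FPKM in diabetic mice. Bst2 rose by 2.21 ± 0.25 (SE, adjusted p = 2.29e-05, limma) and 2.73 ± 0.25 (SE, adjusted p = 5.47e-06).

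Ifitm1, a relative of Ifitm3 in the same cluster on chromosome 7, measured 2.72, 5.48 and 3.43 FPKM in WT control mice, against 10.2, 19.9, 17.2 and 11.8 FPKM in WT diabetic mice, a rise of 1.91. In Cfb-/- mice it measured 3.22, 5.22 and 11.6 FPKM in controls and 10.6, 11.6, 9.79 and 14.8 FPKM in diabetic mice, a difference of 0.97 that just passed the test (adjusted p = 0.0489, limma) and in which the groups overlapped. That call was lost in most other settings, with an adjusted p up to 0.254 when Cfb-/- control 1 was left out. Urothelial markers, 8 genes such as the uroplakins, were also uneven between mice: they summed to 45.5 and 53.1 FPKM in WT diabetic 2 and 3, the highest 2 for Ifitm1, and to 10.5 FPKM in Cfb-/- control 3, the highest control for Ifitm1. They summed to 10.1 FPKM in Cfb-/- control 1, the lowest of its group for Ifitm1, and to 0.453 to 0.963 FPKM in WT control mice, and their part in the result was not tested.

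Several effectors moved less. Eif2ak2 (PKR), the kinase that halts translation on double-stranded RNA, rose by 1.75 and 1.55. Rsad2 (viperin), which makes an antiviral nucleotide, and its neighbour on chromosome 12, the nucleotide kinase gene Cmpk2, started from control means of 8.91 and 5.18 FPKM in WT mice and rose by 0.96 and 1.15, and by 1.02 and 0.84 in Cfb-/- mice. Samd9l (chr6:3372257-3399571), an antiviral factor and tumour suppressor of blood cells, measured 34.7, 19.7 and 22.8 FPKM in WT control mice, against 34.4, 39, 28.1 and 30.7 FPKM in WT diabetic mice. Its Cfb-/- values were 33.1, 28.5 and 33.5 FPKM in controls and 35.4, 38.6, 40.2 and 34.1 FPKM in diabetic mice. WT groups overlapped, and the differences of 0.39 ± 0.16 in WT mice (SE, adjusted p = 0.063, limma) and 0.22 ± 0.16 in Cfb-/- mice (SE, adjusted p = 0.316) did not pass. Without WT control 1, whose Samd9l was the highest of its group, the WT difference was 0.63 with an adjusted p of 0.00197.

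Isg15 and Usp18 form the ISG15 system, in which ISG15 is a ubiquitin-like protein attached to targets and USP18 both removes it and restrains the type I receptor. Isg15 (chr4:156199424-156200818) measured 3.64, 5.62 and 3.44 FPKM in WT control mice, against 34.9, 46, 33.9 and 37.5 FPKM in WT diabetic mice. It measured 4.01, 3.21 and 4.61 FPKM in Cfb-/- control mice and 34.5, 87.5, 43.7 and 23.4 FPKM in Cfb-/- diabetic mice. Diabetic mice were far above controls in both genotypes, with rises of 3.16 ± 0.32 (SE, adjusted p = 1.04e-05, limma) and 3.39 ± 0.32 (SE, adjusted p = 6.47e-06). Usp18 (chr6:121245906-121270917) measured 1.26, 1.27 and 0.939 FPKM in WT control mice, against 8.82, 9.78, 9.21 and 7.39 FPKM in WT diabetic mice. In Cfb-/- mice it measured 1.48, 0.978 and 1.92 FPKM in controls and 8.08, 19.4, 11.5 and 5.78 FPKM in diabetic mice. It rose by 2.83 and 2.76 without overlap.

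All 6 GTPases rose in both genotypes, by less than the effectors in the median (1.39 in WT and 1.49 in Cfb-/- mice). The guanylate-binding proteins, which coat and disrupt the vacuoles of intracellular microbes, are clustered on chromosome 3, where Gbp3 rose by 2.06 and 2.22, Gbp7 by 1.67 and 1.55, Gbp2 by 1.35 and 1.65, and Gbp5 by 1.42 and 1.19. The immunity-related GTPases Irgm1 and Igtp lie on chromosome 11. Irgm1, a regulator of this family and of autophagy, went from 15.5 ± 0.589 FPKM (SD, n = 3) to 32.7 ± 3.68 (SD, n = 4) in WT mice and from 14.1 ± 2.31 (SD, n = 3) to 39.2 ± 13.3 (SD, n = 4) in Cfb-/- mice. Igtp (Irgm3) rose by 0.85 and 1.22.

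The other 7 genes rose in both genotypes, with medians of 2.17 and 2.20. Rtp4 (chr16:23520219-23614222), a negative regulator of the interferon response in mice, measured 0.982, 1.15 and 1.33 FPKM in WT control mice, against 9.62, 9.77, 9.91 and 8.26 FPKM in WT diabetic mice, and 1.55, 1.46 and 1.56 FPKM in Cfb-/- control mice and 8.17, 18.7, 10.9 and 6.53 FPKM in Cfb-/- diabetic mice. It rose by 2.92 and 2.67 without overlap. The annotated span of Rtp4 overlaps Masp1, at a mean of 0.883 FPKM. Ifi27 (chr12:103434189-103440245), a small interferon-α-inducible gene, measured 10.9, 16.3 and 13.7 FPKM in WT control mice, against 52.2, 49.6, 45.6 and 53.5 FPKM in WT diabetic mice, and 13.4, 11 and 12.8 FPKM in Cfb-/- control mice and 41.3, 71.3, 55.7 and 37.1 FPKM in Cfb-/- diabetic mice. It rose by 1.89 and 2.0, and it overlaps Ifi27l2a, which rose too, so reads of the pair may not be fully separated. Trim30a, a ubiquitin ligase that restrains Toll-like receptor signalling, rose by 2.52 and 2.20, Parp14, an ADP-ribosyltransferase, by 2.22 and 2.26, Xaf1, which promotes apoptosis, by 2.17 and 2.46, Ifi44 by 2.02 and 1.54, and Ifi35 by 1.0 and 1.29.

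**Figure D3:**
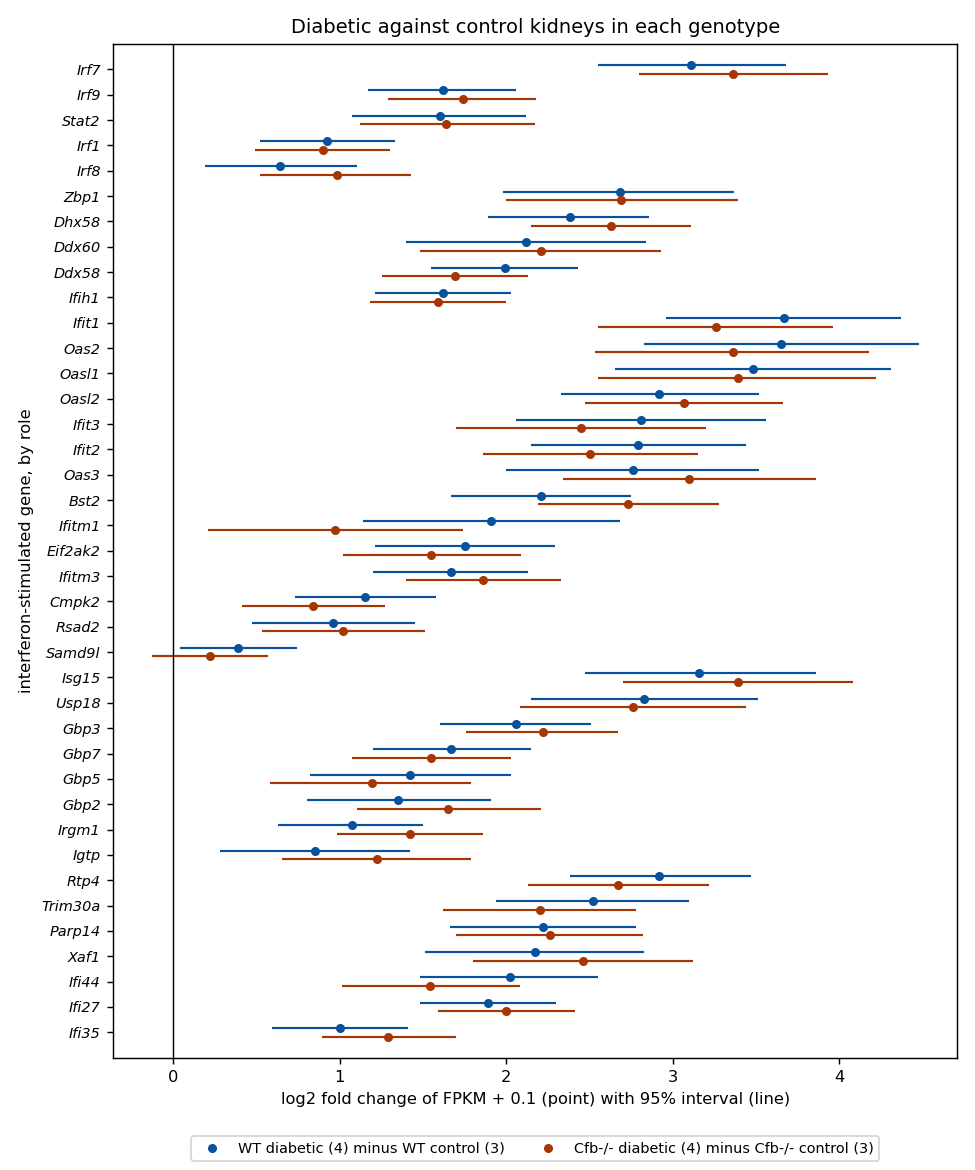
Change with diabetes for each of the 39 genes, as the log2 fold change of FPKM + 0.1 (points) with its 95% interval (lines), in WT mice (4 diabetic against 3 control, blue) and Cfb-/- mice (4 against 3, brown). The intervals of the 2 genotypes overlap for every gene, and the interval of Samd9l in Cfb-/- mice is the only one that crosses 0.

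The rise was then compared between genotypes. Cfb-/- diabetic mice did not differ from WT diabetic mice in any of the 39 genes at an adjusted p under 0.05 (limma). Of all 14912 tested genes 1 was called (0.00671%), and it was Cfb itself (adjusted p = 6.24e-10, limma). A count of 0 is therefore not particular to these 39 genes. By the study's rule 0 of the 39 genes were called, against 0.476% of all tested genes. The smallest unadjusted p of the 39 was 0.15, for Parp14 (limma). Differences on the log2 scale ran from -0.30 for Ifitm1 to 0.37 for Parp14, with a median of 0.11 (0.04 over all tested genes). The 95% intervals all held 0 and had a median half-width of 0.51. They lay within 1 log2 unit in either direction for 36 of the 39 genes, and across all of them the lowest bound was -1.01 (Ifitm1) and the highest 1.04 (Oas2). A difference smaller than these intervals was not detectable with 4 mice against 4. The intervals rest on a spread shared by all 4 groups. Among the 39 genes the highest mouse exceeded the lowest by a median of 2.18-fold in Cfb-/- and 1.34-fold in WT diabetic mice. The intervals may therefore be too narrow for this comparison. The groups overlapped in all 39 genes, against 2.75% of all tested genes whose groups did not overlap.

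The direction of these differences rested on a single mouse. Differences were positive for 31 of the 39 genes with all 8 diabetic mice, but for 7 of 39 without Cfb-/- diabetic 2, when the median was -0.13. Without that mouse the rise with diabetes in Cfb-/- mice still passed in 37 genes, with a median of 1.82.

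**Figure D4:**
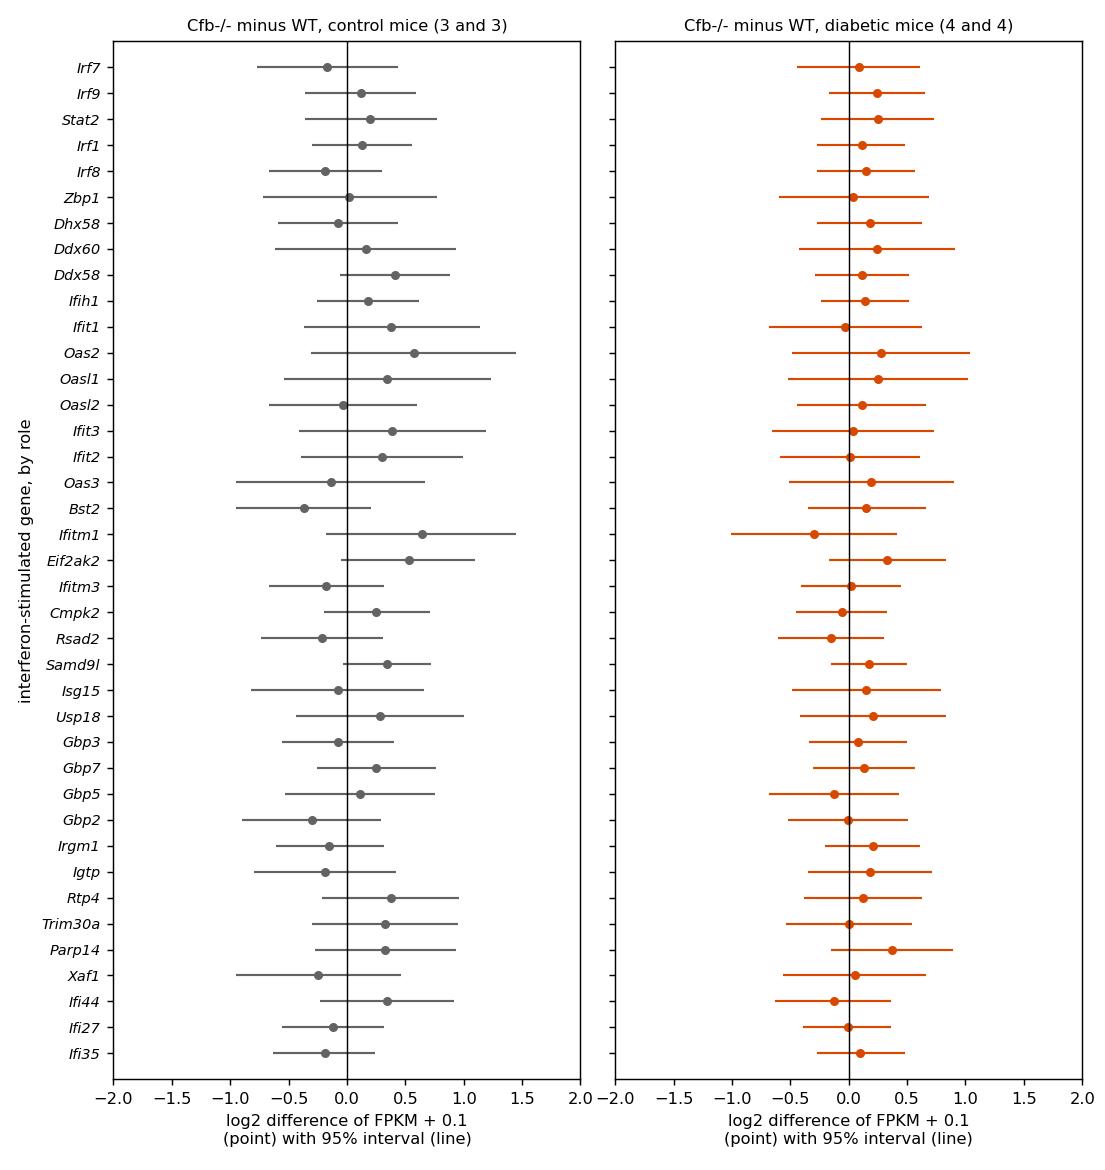
Difference between Cfb-/- and WT mice for each of the 39 genes, as the log2 difference of FPKM + 0.1 (points) with its 95% interval (lines), in control mice (left, 3 and 3) and diabetic mice (right, 4 and 4). All 39 intervals hold 0 in both panels, and in diabetic mice the points lie between -0.30 and 0.37.

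In control mice the comparison of Cfb-/- with WT called 0 of the 39 genes at an adjusted p under 0.05 (limma). Of all tested genes 1 was called (0.00671%), again Cfb (adjusted p = 7.19e-09, limma). The study's rule called 0 of the 39, against 1.17% of all tested genes. The smallest unadjusted p of the 39 was 0.0683, for Eif2ak2 (limma). Differences ran from -0.37 for Bst2 to 0.64 for Ifitm1, with a median of 0.13 (0.06 over all tested genes), and 23 of 39 were positive. Every Cfb-/- control mouse exceeded every WT control mouse in Oas2 and Rtp4, a share to be read against the 13.8% of all tested genes whose groups did not overlap in either direction. Neither passed the test (adjusted p = 0.455 and 0.456, limma). Without WT control 1 a single gene, Samd9l, was called (0.58, adjusted p = 0.0308, limma), where 1724 of all tested genes were called.

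A test of whether the rise itself differed between genotypes (the interaction term) likewise called 0 of the 39 genes. The cut was an adjusted p under 0.05 (limma), which 0% of all tested genes passed. By the study's rule 0 of the 39 were called, against 1.77% of all tested genes. The smallest unadjusted p of the 39 was 0.0853, for Ifitm1 (limma). The largest gaps were -0.94 for Ifitm1, smaller in Cfb-/- mice, and 0.52 for Bst2, larger in Cfb-/- mice. The smallest adjusted p was 0.779. These intervals were wider, with a median half-width of 0.77, and only 19 of 39 lay within 1 log2 unit. They rest on the same shared spread. The rises in WT and Cfb-/- mice, which share no mice, had a Pearson r of 0.94 and a Spearman rho of 0.92 across the 39 genes. Genes are not independent replicates, so this is a description. The 2 rises were within 0.5 of each other on the log2 scale for 37 genes, and the rise was larger in WT mice for 18.

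The diabetic mice of the 2 genotypes were unequally spread. The highest mouse exceeded the lowest by a median of 2.18-fold over the 39 genes among Cfb-/- diabetic mice and by 1.34-fold among WT diabetic mice, while over all tested genes above 0 the medians were 1.37 and 1.34. The range exceeded 2-fold in 27 of the 39 genes in Cfb-/- diabetic mice and in 1, Oas2, in WT diabetic mice. It was wider in Cfb-/- than in WT diabetic mice for 37 of 39 genes, compared with 52.3% of all tested genes. Cfb-/- diabetic 2 was the highest of its group in 36 of the 39 genes (25.8% of all tested genes), at a median of 1.66 times the group median, and Cfb-/- diabetic 4 was the lowest in 31 (29.7%), at 0.708 times. Oas2 had the widest range, 4.41-fold, from 2.38 to 10.5 FPKM. The ranges are given as a description, since 4 mice a group cannot fix a spread.

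The genes also moved together from mouse to mouse within groups. After removing group means, a gene correlated with the mean of the other 38 genes at a median Pearson r of 0.84 over the 14 mice, and 21 genes exceeded 0.8. These points share libraries and the same few mice, and the values are a description. No such correlation was taken for other tested genes here, so the co-movement is not shown to be particular to the list. Among the 8 diabetic mice the median was 0.95, and 0.87 without Cfb-/- diabetic 2. Ifitm1 was the lowest, at -0.05 over the 14 mice, followed by Samd9l (0.30), Irf1 (0.37) and Irf8 (0.53). Some genes depended on that mouse: among the diabetic mice, leaving it out took Irf1 from 0.41 to -0.15, Irf8 from 0.59 to 0.05 and Gbp2 from 0.70 to 0.17.

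Several lists of cell type markers moved in the same kidneys, to be read against the 36.2% of all tested genes that rose in WT mice and the 27.4% in Cfb-/- mice. All 12 macrophage and monocyte markers rose in WT diabetic mice and 11 of 12 in Cfb-/- diabetic mice, with medians of 1.92 and 2.36 on the log2 scale. Their summed level was 73.9 to 91.9 FPKM in WT control, 283 to 412 in WT diabetic, 60.9 to 96.9 in Cfb-/- control and 243 to 443 in Cfb-/- diabetic mice. Of 11 T and NK cell markers tested, 6 rose in WT and 8 in Cfb-/- mice, while 3 had negative changes in WT mice (down to -0.98 for Gzma, adjusted p = 0.112, limma). Of 6 dendritic cell markers tested (8 listed), 4 and 6 rose. Of 4 B cell markers tested, 3 rose in WT mice (Cd79a, Cd79b and Ms4a1) and 1, Cd79b, in Cfb-/- mice. Neutrophil markers went the other way in the median (-0.25 and -0.89 over 4 tested): Csf3r rose in both genotypes, S100a9 fell in Cfb-/- mice, and the others did not pass. Among cells of the kidney and urinary tract, 8 of 8 urothelial markers rose in WT mice, with a median of 3.74, and 1 of 8, Krt20, in Cfb-/- mice. Endothelial markers rose in 5 and 6 of 8, and podocyte markers in 2 and 5 of 5. Of these markers, 0 were listed at 0 in all 14 mice. Proximal tubule markers summed to 4644 to 4875 FPKM in WT control mice and 2424 to 3092 in WT diabetic mice, and to 4458 to 4546 and 1897 to 2961 in the Cfb-/- groups. The part of these cell types in the rise of the interferon-stimulated genes was not tested. Within the Cfb-/- diabetic group, Cfb-/- diabetic 2 was the highest in 5 of 6 dendritic cell markers and in 8 of 11 T and NK cell markers. It was also the highest in 6 of 8 endothelial and 3 of 5 podocyte markers, and in 25.8% of all tested genes. It was the highest in 2 of 12 macrophage markers and in 0 of 4 B cell, 0 of 4 neutrophil and 0 of 8 proximal tubule markers. The macrophage markers summed to 408 FPKM in that mouse and 443 FPKM in Cfb-/- diabetic 1.

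**Figure D5:**
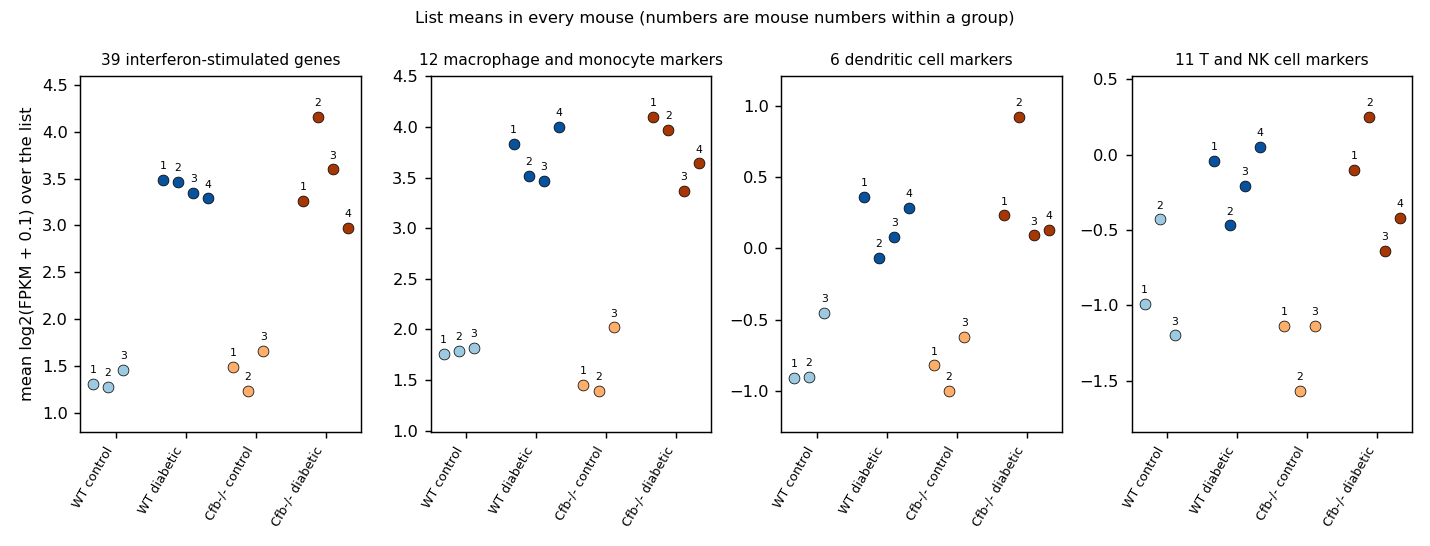
Mean log2(FPKM + 0.1) in every mouse (numbered points) of the 39 interferon-stimulated genes and of 3 lists of leukocyte markers, by group. The genes of each list average higher in every diabetic mouse than in the control mice of its genotype except for T and NK cell markers in WT mice, and Cfb-/- diabetic 2 leads the interferon-stimulated genes, the dendritic cell markers and the T and NK cell markers.

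Transcripts of the interferons themselves were scarcely seen. Of 21 interferon genes in the tables, 15 were listed at 0 in all 14 mice, and only Ifng passed the filter. Ifng averaged 0.142 FPKM in WT control, 0.14 in WT diabetic, 0.0913 in Cfb-/- control and 0.0943 in Cfb-/- diabetic mice, and its changes of 0.16 and 0.00 did not pass the test (adjusted p = 0.753 and 0.998, limma). Ifnb1 was chosen after its values were seen. It was listed at 0 in all 6 control mice and at 0.0714 and 0.0649 FPKM in WT diabetic 1 and 4 and 0.0606 FPKM in Cfb-/- diabetic 1, which is too low for a test.

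The receptors and signal carriers were measurable, with list medians of 0.69 and 0.66 for the receptors and 0.49 and 0.43 for the signal carriers in WT and Cfb-/- mice. Of 6 receptor subunits, 4 rose in WT and 6 in Cfb-/- mice, led by both chains of the IFN-γ receptor, Ifngr1 (0.82 and 1.01) and Ifngr2 (1.06 and 1.09), with Ifnar1 at 0.57 and 0.48. Of 10 kinases, STATs and further IRFs, 7 rose in WT mice and 4 in Cfb-/- mice, where 36.2% and 27.4% of all tested genes rose. Stat3, best known as a carrier of interleukin-6 signals, rose by 1.42 and 1.38, and Irf4 by 1.94 and 2.13. Jak1 rose by 0.42 in WT mice and differed by 0.27 in Cfb-/- mice (adjusted p = 0.17, limma), and Irf3, which is activated by phosphorylation, stood at -0.32 and -0.05, with adjusted p of 0.0949 and 0.818.

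Of 15 genes of nucleic acid sensing, 12 rose in WT and 10 in Cfb-/- mice, where 36.2% and 27.4% of all tested genes rose. The list medians were 1.11 and 1.17. With a filter of 1 FPKM 12 of these genes stayed, 9 and 7 were called, and the medians were 0.77 and 0.74. The endosomal receptors Tlr7 and Tlr8 rose by 2.13 and 2.20 in WT mice and by 2.38 and 1.97 in Cfb-/- mice, and Tmem173 (STING), the adaptor of cytosolic DNA sensing, by 2.15 and 1.91. The kinase Tbk1 differed by 0.15 and 0.16, which did not pass (adjusted p = 0.258 and 0.269, limma). Of 9 inhibitors of the pathway, 5 and 8 rose, to be read against the same 36.2% and 27.4%. Among them were Socs3 (2.23 and 2.01), Samhd1 (1.39 and 1.49) and Adar (1.15 and 1.24), whose editing of self RNA keeps MDA5 quiet.

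A further list of interferon-induced genes outside the 39 gave 65 tested genes, with medians of 1.51 in WT and 1.60 in Cfb-/- mice. In WT mice 59 rose and 2 fell, where 36.2% of all tested genes rose and 9.97% fell. In Cfb-/- mice 57 rose and 0 fell, where 27.4% rose and 6.4% fell. This list too was chosen with earlier results of these data known, so it is no independent check of the 39 genes. Ifi27l2a (3.35 and 2.72), Lgals3bp (2.64 and 2.78) and Slfn2 (2.39 and 2.50) had the smallest p in WT mice. The 2 that fell in WT mice were Ly6e, the most abundant of the list, by 0.50, and Mov10, chosen after its values were seen, by 0.42. Ly6e averaged 384 FPKM in WT control, 270 in WT diabetic, 252 in Cfb-/- control and 273 in Cfb-/- diabetic mice. Both falls were no longer called when all genes above 0 were tested.

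These changes are relative to the FPKM scale, on which the typical gene was itself shifted. With median-ratio scaling the all-gene median went from 0.29 to 0.03 in WT mice and from 0.22 to -0.01 in Cfb-/- mice, and the median of the 39 genes became 1.74 and 1.75, with 36 and 37 genes called. Irf8 and Igtp were the 2 genes that lost their call in WT mice (adjusted p = 0.15 and 0.0949, limma), and Ifitm1 lost it in Cfb-/- mice (adjusted p = 0.157). Calls in the pathway lists changed as well. Receptor subunits called as higher went from 4 and 6 in WT and Cfb-/- mice to 4 and 3, kinases, STATs and further IRFs from 7 and 4 to 3 and 3, and inhibitors from 5 and 8 to 3 and 5. Genes of nucleic acid sensing went from 12 and 10 to 10 and 10, and the further interferon-induced genes from 59 and 57 to 48 and 52. The share of all tested genes called on that scale is not given here. The 36.2% and 27.4% above belong to the unscaled values and are no background for these counts. On that scale Irf3 and Ticam1, an adaptor of Toll-like receptors, fell in WT mice, both named after their values were seen.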

How the data were processed

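RNA of kidney from 14 mice was sequenced as stranded mRNA libraries. Per the labels, the submitters' processing notes name Trimmomatic, HISAT2, Cufflinks, HTSeq and DESeq, with the build GRCm38.p6. The values the authors deposited are FPKM, with 1 file a mouse, and counts were not analysed here. The members and gene lists were chosen with earlier results of these data known. log2(FPKM + 0.1) was fitted in limma 3.58.1 (R 4.3.3; lmFit, contrasts.fit, eBayes with trend) with a mean for each of the 4 groups over all 14 mice, on genes that reached 0.1 FPKM in 3 mice or more, with Benjamini-Hochberg adjustment over all 14912 genes. This differs from the study's count model, which needs counts. Fold changes on this scale understate the change of low genes. Each mouse is 1 replicate. Values in every mouse were given for the 3 members of highest mean FPKM, the 8 with the largest called rise and the 3 with the largest called fall in WT mice, any member called by the study's rule between genotypes and any with opposite called directions. No member met the last 3 criteria, so the exact permutation test planned for members called between diabetic genotypes was not run. Samd9l and Ifitm1 were added after their values were seen. Pathway genes named were the 3 of highest mean FPKM or smallest p of their list unless stated. Relative depth was read from ratios of low FPKM values, since the libraries' totals were not used here. The fit was tested on simulated data. Promoter windows and gene positions came from RefSeq (GRCm38.p6).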

Additional observations from a re-analysis of the deposited data

Results flagged for a closer look

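In the 2 diabetic groups each of the 39 genes was checked for a mouse that stood far from the other 3, with the gap to the nearest mouse divided by the group's range. Of 78 such groups 2 passed Dixon's critical value, where chance flags about 1 in 20. Gbp2 was highest in Cfb-/- diabetic 2 at 19.3 FPKM, above a next value of 11.9 FPKM and a lowest of 10.6 FPKM (0.849 of the range). Gbp5 was lowest in WT diabetic 2 at 1.92 FPKM, under a next value of 2.59 FPKM and a highest of 2.64 FPKM (0.931 of the range).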

How the results depend on the processing

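The number of the 39 genes called at an adjusted p under 0.05 (limma) stayed between 36 and 38 in WT mice and between 36 and 38 in Cfb-/- mice under pseudocounts of 1 and 0.01, no filter, a filter of 1 FPKM, median-ratio scaling, quantile normalization, a fit of the compared groups alone and a replicate block. The filter of 1 FPKM left 38 genes tested. Shares of all tested genes called in these other settings are not given here. With each mouse left out in turn the counts were 36 to 39 and 37 to 38, and by the study's rule 33 to 35 and 31 to 36. Between genotypes the counts with each mouse left out were 0 to 1 in control mice by either rule and 0 to 1 for the interaction by the study's rule, and the genes were Samd9l without WT control 1, and Ifitm1 without Cfb-/- control 1 (both comparisons) or without WT control 2 (interaction). In diabetic mice the count between genotypes was 0 in every setting run. The difference of Samd9l in Cfb-/- mice turned to -0.02 with median-ratio scaling (adjusted p = 0.934). No pairing of the mice by the replicate numbers in the titles was seen. Same-numbered pairs correlated at a median of 0.0221 after removing group means and other pairs at 0.0118. Of 14 mice 0 matched best with their own number. These correlations cannot exclude a pairing that leaves little trace in expression. A fit with the replicate block called 38 and 38 genes. Depth was not given as counts, so no counting intervals could be set, and the median half-width of the unadjusted 95% interval of a genotype difference was 0.51 log2 units in diabetic mice and 0.58 in control mice. A call at an adjusted p needs a larger difference than that. Both widths rest on the spread shared by all 4 groups, and the one for diabetic mice may be too narrow.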
